A study of Mus musculus with 2 samples.

Results

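The interleukin-1 family and the inflammasome were read as 10 genes in cells sorted as microglia from the prefrontal cortex of mice. The genes were taken by symbol from the 32589 features of the deposited matrices, and all 10 were found in both libraries. They comprise the ligands Il1a, Il1b and Il18, the receptor antagonist Il1rn, the receptor chain Il1rap, the decoy receptor Il1r2, and the inflammasome genes Nlrp3, Pycard, Casp1 and Gsdmd. In microglia-like cells 8 of the 10 reached a mean level of 5 CPM over the libraries, and Il1rn and Il1r2 did not. Transcripts were counted as unique molecular identifiers (UMIs, tags that count each captured molecule once), and CPM scales a gene's UMIs to a class total of 1000000.

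IL-1 alpha and IL-1 beta are inflammatory cytokines that signal through the same receptor, for which Il1rap encodes the accessory chain. IL-1 beta and IL-18 are made as inactive precursors, and the NLRP3 inflammasome is the complex in which the sensor NLRP3 and the adaptor ASC, the product of Pycard, activate caspase-1 to cut them. Caspase-1 also cuts gasdermin D, whose fragment forms the membrane pores through which mature IL-1 beta leaves a cell, so transcript levels alone do not show release. In the brain, microglia are regarded as a main source of IL-1, and glucocorticoids are known for lowering the transcription of inflammatory cytokine genes.

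C57BL/6 mice were given corticosterone, the stress hormone of rodents, by oral gavage, in a model of depression with hormone excess, and the other group was given vehicle. CD45-low, CD11b-positive cells, the usual microglia gate, were sorted after enzymatic digestion of the tissue and profiled with a Singleron GEXSCOPE single-cell kit. There was 1 library per group. Dose, duration, and the number, sex and age of the animals in a library are not given in the sources used here. The labels name no allele or other agent for either group, and vehicle animals served as the only controls. Because each group was 1 library, group and library cannot be told apart, no p-value was computed, and every interval below is a 95% interval that covers counting error only.

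After filtering, the vehicle library held 10500 cells with a median of 3220.5 UMIs, and the corticosterone library 17883 cells with a median of 3961. Microglia-like cells, in which all 12 microglia markers were detected, numbered 8193 and 15450. Border-associated macrophage-like cells, named after the macrophages of the meninges and vessel walls, numbered 1111 and 785. Neutrophil-like cells came as a Cxcr2-led cluster (203 and 277 cells) and a Camp-led cluster (236 and 122 cells), which carry genes of mature neutrophils and of granule-forming precursors. A total of 101 cell barcodes occurred in both libraries, 0.962% of the vehicle and 0.565% of the corticosterone cells.

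Several features of these libraries touch each result. Different clusters held most microglia-like cells of each library: cluster 1 held 7134 vehicle and 399 corticosterone cells, and cluster 0 held 922 and 11903. Microglia RNA was present in every other class, so class levels are those of barcodes rather than of pure cell types. In border-associated macrophage-like cells the transcripts of 4 microglia markers (Siglech, Sall1, Tmem119, P2ry12) lay at 0.773 to 0.867 times their microglia-like level in vehicle and at 0.617 to 0.674 times in corticosterone. In the Cxcr2-led cluster they lay at 0.633 to 0.770 times and 0.499 to 0.537 times, and in the Camp-led cluster at 0.311 to 0.371 times and 0.119 to 0.146 times. Transcripts of the 14 neutrophil markers summed in microglia-like cells to 971 CPM under vehicle and 702 CPM in corticosterone. Csf3r alone gave 464 and 550 CPM of these sums, and S100a8 and S100a9 gave 201 and 119 CPM under vehicle and 53.0 and 35.3 CPM under corticosterone, so the sum is no measure of neutrophil RNA.

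Il1b (ENSMUSG00000027398), which encodes the IL-1 beta precursor, was the member with the largest difference in microglia-like cells. Its level was 29.4 CPM (27.6 to 31.3) under vehicle and 289 CPM (285 to 293) in corticosterone. The library intervals were far apart, and the log2 ratio of corticosterone over vehicle was 3.30 (3.20 to 3.39), a 9.82-fold higher level. Il1a (ENSMUSG00000027399), the IL-1 alpha gene, was at 551 CPM (544 to 559) under vehicle and 872 CPM (865 to 878) under corticosterone, a log2 ratio of 0.66 (0.64 to 0.68). Il1b was thus 1 of 8 measured members with a difference of at least 2-fold. Over 9682 genes at the same level, 4.33% differed at least 2-fold, 2.26% higher and 2.07% lower. Il1b had the 13th highest ratio of those genes, and Il1a stood at rank 454, or the 95.3 percentile.

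Il1a and Il1b are neighbours on mouse chromosome 2, both on the minus strand, with 54597 bases and 0 protein-coding genes between them. In build GRCm38, Il1a spans chr2:129299610-129309972 and Il1b chr2:129364570-129371139. Il1a overlaps the opposite-strand transcript Gm14023 and Il1b the antisense transcript Il1bos, and whether the counting used strand is not given, so UMIs of these partners cannot be told apart from those of the genes. The 300 bases around each start site are shown because the neighbours differed to unlike degrees between the libraries. Both are RefSeq sequences of GRCm38.p6 on the minus strand, from 250 bases before the start to 50 after it. The Il1a window is chr2:129309923-129310222 and the Il1b window chr2:129371090-129371389. Capitals mark matches to any of 5 motifs searched on both strands: NF-kB (GGG and CC with 5 bases between), AP-1 (TGANTCA), GAS, the STAT element (TTCNNNGAA), ISRE (GAAA and GAAA with 2 bases between) and PU.1 (GAGGAAGT).
Il1a: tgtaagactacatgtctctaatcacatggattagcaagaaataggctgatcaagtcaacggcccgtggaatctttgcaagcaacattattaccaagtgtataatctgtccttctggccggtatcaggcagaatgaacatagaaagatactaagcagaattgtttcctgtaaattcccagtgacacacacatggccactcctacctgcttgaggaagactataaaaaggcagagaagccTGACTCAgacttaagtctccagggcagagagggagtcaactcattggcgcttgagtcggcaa
Il1b: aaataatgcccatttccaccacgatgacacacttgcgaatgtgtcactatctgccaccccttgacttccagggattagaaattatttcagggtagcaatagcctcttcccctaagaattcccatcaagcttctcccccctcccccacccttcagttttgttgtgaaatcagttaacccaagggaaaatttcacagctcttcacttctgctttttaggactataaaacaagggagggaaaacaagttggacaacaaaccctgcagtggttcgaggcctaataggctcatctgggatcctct
The Il1a window held 1 match, an AP-1 motif that begins 12 bases before the start, and 7.81% of 32851 mouse promoter windows held that motif. The Il1b window held none of the 5. The shares of all windows with NF-kB, GAS, ISRE and PU.1 matches were 50.8%, 8.30%, 3.44% and 3.20%. A match is a description of letters and not of binding, and the windows do not reach distant elements.

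The levels by class and library show the same 2 ligands beside the other members.

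**Figure D1:**
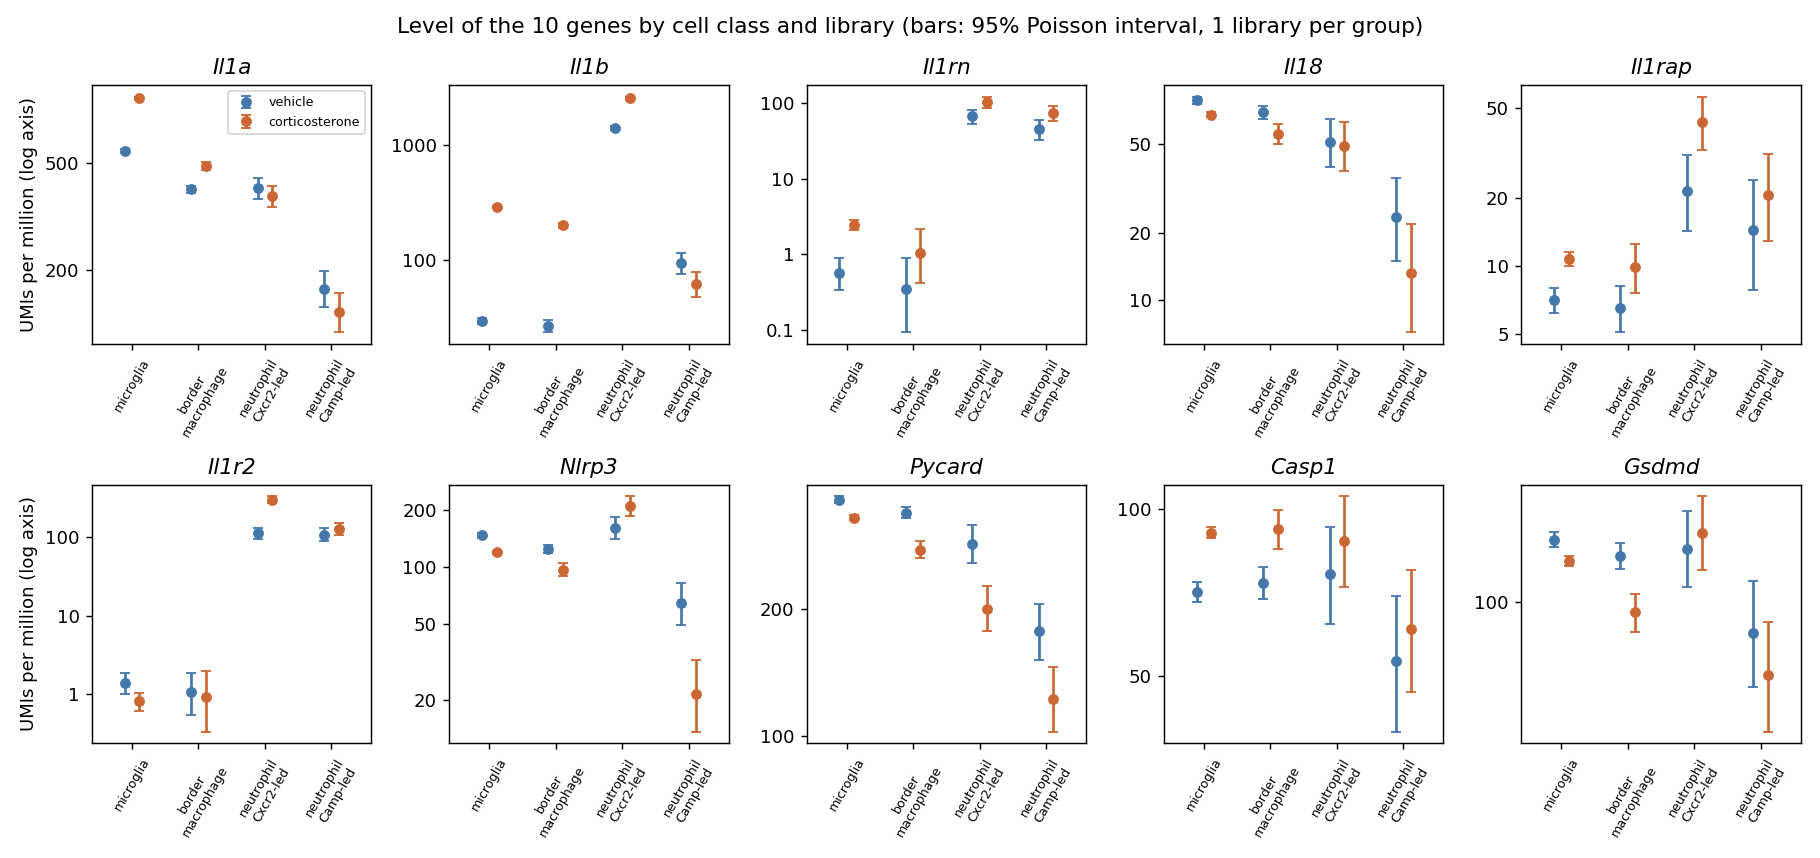
CPM (log axis, a separate scale for each gene) of the 10 genes in 4 cell classes, with 1 point per library (blue vehicle, orange corticosterone) and bars for 95% Poisson intervals. Il1b is at 29.4 and 289 CPM in microglia-like cells and at 1411 and 2563 CPM in the Cxcr2-led neutrophil-like cluster, and Il1rn and Il1r2 are higher in both neutrophil-like clusters than in microglia-like and macrophage-like cells.

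The Il1b difference was seen in the number of cells with a UMI and in the number of UMIs in such a cell. After every cell had been thinned to 1000 UMIs, 2.37% (2.04 to 2.74%) of 7587 vehicle cells still held Il1b, as did 15.7% (15.1 to 16.3%) of 15352 corticosterone cells, against 6.18% and 32.2% as deposited. Thinning left out 606 vehicle and 98 corticosterone microglia-like cells with fewer UMIs. Among cells with Il1b as deposited, the mean was 1.95 UMIs in vehicle and 4.22 in corticosterone, and the highest cell had 19 and 53. Cells with at least 10 Il1b UMIs numbered 8 of 8193 and 564 of 15450. In corticosterone, the tenth of microglia-like cells richest in Il1b held 70.3% of its UMIs, compared with 34.0% for Il1a. Il1a was spread more widely: its thinned share was 37.3% (36.2 to 38.4%) in vehicle and 49.5% (48.7 to 50.3%) in corticosterone. As deposited, and so at unequal depth, cells with at least 3 Il1a UMIs made up 30.5% and 53.6%.

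**Figure D2:**
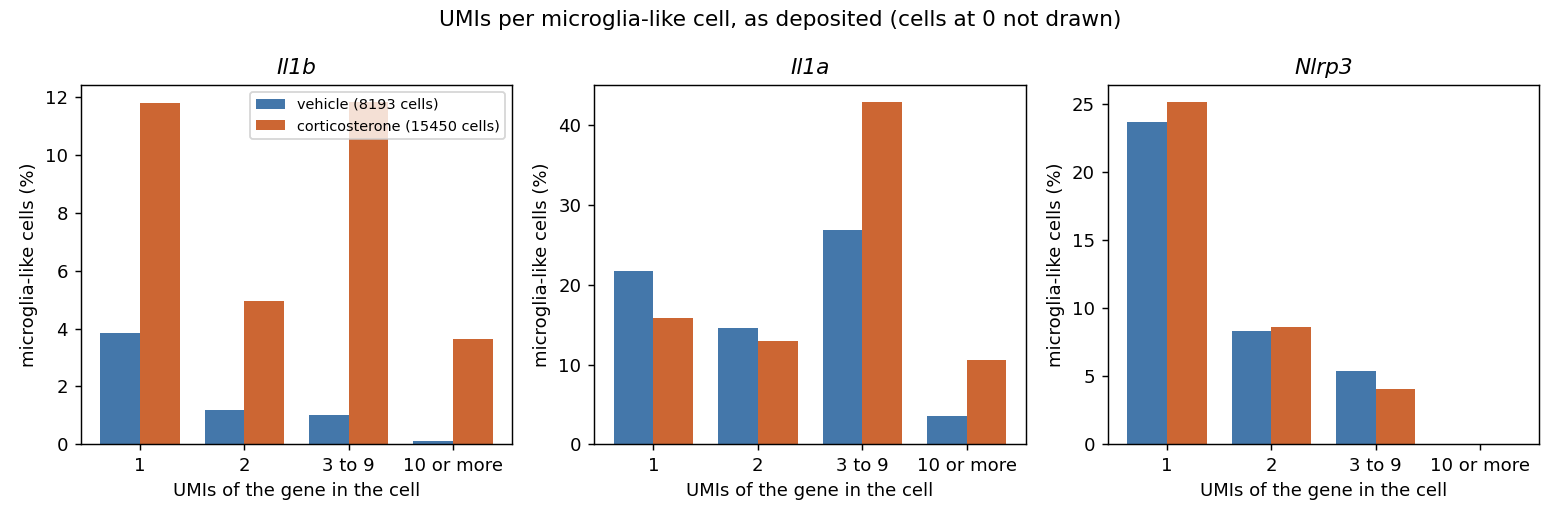
Percent of microglia-like cells with 1, 2, 3 to 9, or 10 or more UMIs of Il1b, Il1a and Nlrp3, as deposited, with blue bars for vehicle and orange bars for corticosterone. For Il1b the corticosterone bars are higher in every bin, at 11.8% against 3.86% for 1 UMI and 3.65% against 0.0976% for 10 or more, whereas the Nlrp3 bars of the libraries lie close together.

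Free RNA can place transcripts in barcodes that do not make them, and these libraries gave no usable measure of that background for Il1b. Erythroid cell-like barcodes (median 822 and 983 UMIs, where microglia-like cells had 3184 and 4006.5) had Il1b in 0 of 23 vehicle and 0 of 4 corticosterone thinned cells. Counted as 3 cells of the total, a count of 0 allows a share of up to 13% and 75%, and both microglia-like shares, 2.37% in vehicle and 15.7% in corticosterone, lie below these limits. How much of either share is free RNA was not tested. S100a8, an abundant neutrophil transcript, was lower in microglia-like cells of the corticosterone library, at 201 CPM (196 to 206) and 53.0 CPM (51.4 to 54.7). Of the 14 neutrophil markers 13 were lower there and Csf3r was higher. Erythroid markers summed to 109 and 383 CPM, 6 of 8 higher and 1 lower, and oligodendrocyte markers to 102 and 124 CPM, 4 of 8 higher and 4 lower. Transcripts of other cell types thus differed in both directions between the libraries, and their part in the Il1b difference was not tested. Microglia-like cells with no UMI of any neutrophil or border-macrophage marker numbered 543 of 8193 in vehicle and 629 of 15450 in corticosterone. Their median was 1958 and 2778 UMIs, and Il1b was at 33.7 and 313 CPM, a log2 ratio of 3.21. That filter also drops cells with Csf3r, which microglia-like cells held at 464 and 550 CPM, and it does not remove free Il1b RNA. The subset is thus small and selected, and its ratio does not measure that background.

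Il1b differed in each microglia-like cluster, which bears on the uneven share of the libraries among them. In cluster 0 it was at 31.2 CPM (24.3 to 39.5) under vehicle and 278 CPM (274 to 283) in corticosterone. In cluster 1 the levels were 28.9 CPM (27.0 to 30.9) and 247 CPM (223 to 273), and in cluster 2 they were 55.9 CPM (35.5 to 83.9) and 318 CPM (309 to 328). Cluster 6, led by interferon-induced genes such as Ifit3, had 40.0 CPM from 3 UMIs in 20 vehicle cells and 368 CPM (345 to 393) in 437 corticosterone cells. The log2 ratios of the 4 clusters, 3.16, 3.10, 2.51 and 3.20, had overlapping intervals, of which the 1.92 to 3.17 of cluster 2 and the 1.65 to 5.48 of cluster 6 were the widest. Within the corticosterone library Il1b was highest in cluster 6 and lowest in cluster 1, a 1.27 and 0.856 multiple of the level over all its microglia-like cells.

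Depth and mitochondrial share differed between the libraries, with a median mitochondrial share per microglia-like cell of 2.48% in vehicle and 4.11% in corticosterone. Across 4 bins of equal cell number by UMI count the Il1b log2 ratio was 2.99, 3.21, 3.02 and 3.51, and across 4 bins by mitochondrial share it was 3.26, 3.31, 3.44 and 2.93. No bin had an interval that reached the 2-fold line. The Il1a ratio was lower in the first bin than in the last, at 0.34 and 0.76 by UMI count and at 0.47 and 0.80 by mitochondrial share, so its size was tied to which cells were compared. Restricting to cluster 0 or to cluster 1 gave Il1a ratios of 0.94 and 0.78.

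**Figure D3:**
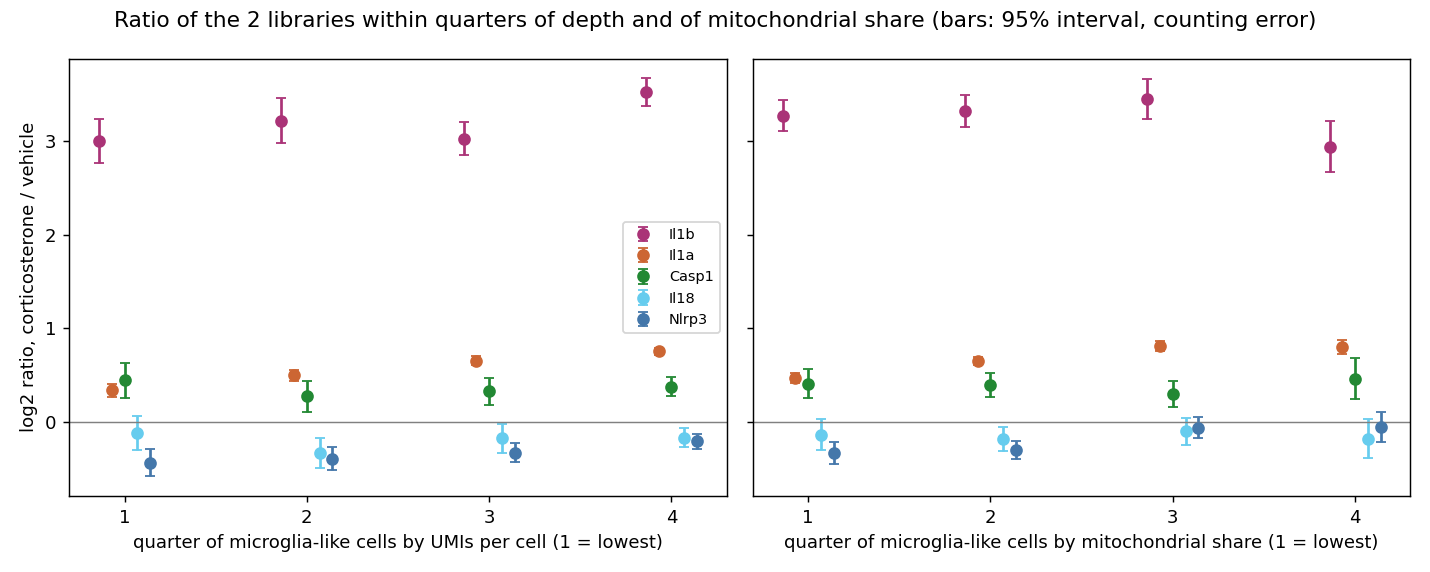
Log2 ratio of corticosterone over vehicle (y axis) of 5 genes in 4 bins of microglia-like cells by UMI count (left) and by mitochondrial share (right), with bars for 95% intervals of counting error. Il1b lies between 2.93 and 3.51 in all bins, Casp1 between 0.28 and 0.47, and Nlrp3 between -0.43 and -0.05.

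Il18 (ENSMUSG00000039217), whose product induces interferon gamma in lymphocytes, differed less between the libraries than the IL-1 ligands in microglia-like cells. It was at 78.7 CPM (75.7 to 81.8) under vehicle and 68.0 CPM (66.1 to 69.9) under corticosterone, a log2 ratio of -0.21 (-0.28 to -0.14). The intervals did not overlap, but the difference was well inside the spread of all genes, for which the 5th and 95th percentiles were -0.67 and 0.64. Thinned shares were 7.59% and 6.46%. The ratio was 0.20 among microglia-like cells without neutrophil or border-macrophage markers, 543 of 8193 vehicle and 629 of 15450 corticosterone cells. That filter also drops cells with Csf3r, which microglia-like cells held at 464 and 550 CPM, so the subset is small and selected. As the sign differed there, no direction is read. The 27014 bases of Il18 on chromosome 9 overlap Bco2 and Tex12 on the other strand.

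The receptor genes had few UMIs in microglia-like cells. Il1rap (ENSMUSG00000022514) was at 7.03 CPM (6.16 to 7.98) under vehicle and 10.7 CPM (9.96 to 11.5) under corticosterone, a log2 ratio of 0.61 (0.39 to 0.82), and thinned shares were 0.699% and 1.04%. Among cells without a neutrophil or border-macrophage marker UMI the Il1rap ratio was 1.86, so its size depended on which cells were compared. Il1rn (ENSMUSG00000026981), whose product occupies the IL-1 receptor without signalling, had 19 UMIs in all vehicle microglia-like cells and 177 in corticosterone, or 0.566 and 2.43 CPM. Its log2 ratio of 2.11 (1.42 to 2.87) turned to -0.90 in cluster 0 alone, where 8 vehicle and 104 corticosterone UMIs were counted, and no direction is read for it. Il1r2 (ENSMUSG00000026073), the decoy that binds IL-1 without passing on a signal, had 46 and 58 UMIs, or 1.37 and 0.798 CPM. Its ratio of -0.78 (-1.36 to -0.19) turned to 1.30 (-0.40 to 2.64) in cluster 1 alone, and no direction is read for it. In the Cxcr2-led neutrophil-like cluster Il1rn lay at 117 and 42.0 times, and Il1r2 at 83.1 and 379 times, its microglia-like level in vehicle and corticosterone.

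The inflammasome genes differed little. Nlrp3 (ENSMUSG00000032691), the sensor, was at 147 CPM (143 to 151) under vehicle and 119 CPM (117 to 122) under corticosterone, a log2 ratio of -0.30 (-0.35 to -0.25). In the 2 upper bins by mitochondrial share its ratio was -0.05, with intervals that included 0, and in cluster 0 and cluster 1 alone it was -0.05 and -0.10. Pycard (ENSMUSG00000030793), the adaptor gene, was at 364 CPM (358 to 371) and 330 CPM (326 to 334), a ratio of -0.14 (-0.17 to -0.11). Gsdmd (ENSMUSG00000022575), the pore protein gene, was at 129 CPM (125 to 133) and 118 CPM (116 to 121), a ratio of -0.13 (-0.18 to -0.07). Casp1 (ENSMUSG00000025888), the protease gene, was the inflammasome member with a higher level in corticosterone, at 71.0 CPM (68.1 to 73.9) and 90.7 CPM (88.5 to 92.9), a ratio of 0.35 (0.29 to 0.42). The Casp1 ratio was 0.29 in cluster 0, 0.18 with an interval that included 0 in cluster 1, and -1.0 (-1.73 to -0.17) in cluster 6, where the vehicle library had 20 cells. Thinned shares were 13.8% and 11.1% for Nlrp3, 28.9% and 27.3% for Pycard, 6.75% and 8.49% for Casp1, and 11.9% and 11.1% for Gsdmd.

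Of the 8 measured members 4 were higher and 4 lower in corticosterone, with a median log2 ratio of 0.11, where the median of all 9682 genes was -0.01 and 48.0% were higher. Scaling by DESeq2 size factors moved the microglia-like ratios of all genes by 0.11 and TMM scaling by 0.10, under which the signs of the 8 stayed as given. Pycard and Gsdmd lay at -0.03 and -0.01 under DESeq2 scaling. Pycard was at 0.13 among cells without other markers, and Gsdmd at 0.10 and 0.04 in cluster 0 and cluster 1 alone, so no direction is read for either.

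**Figure D4:**
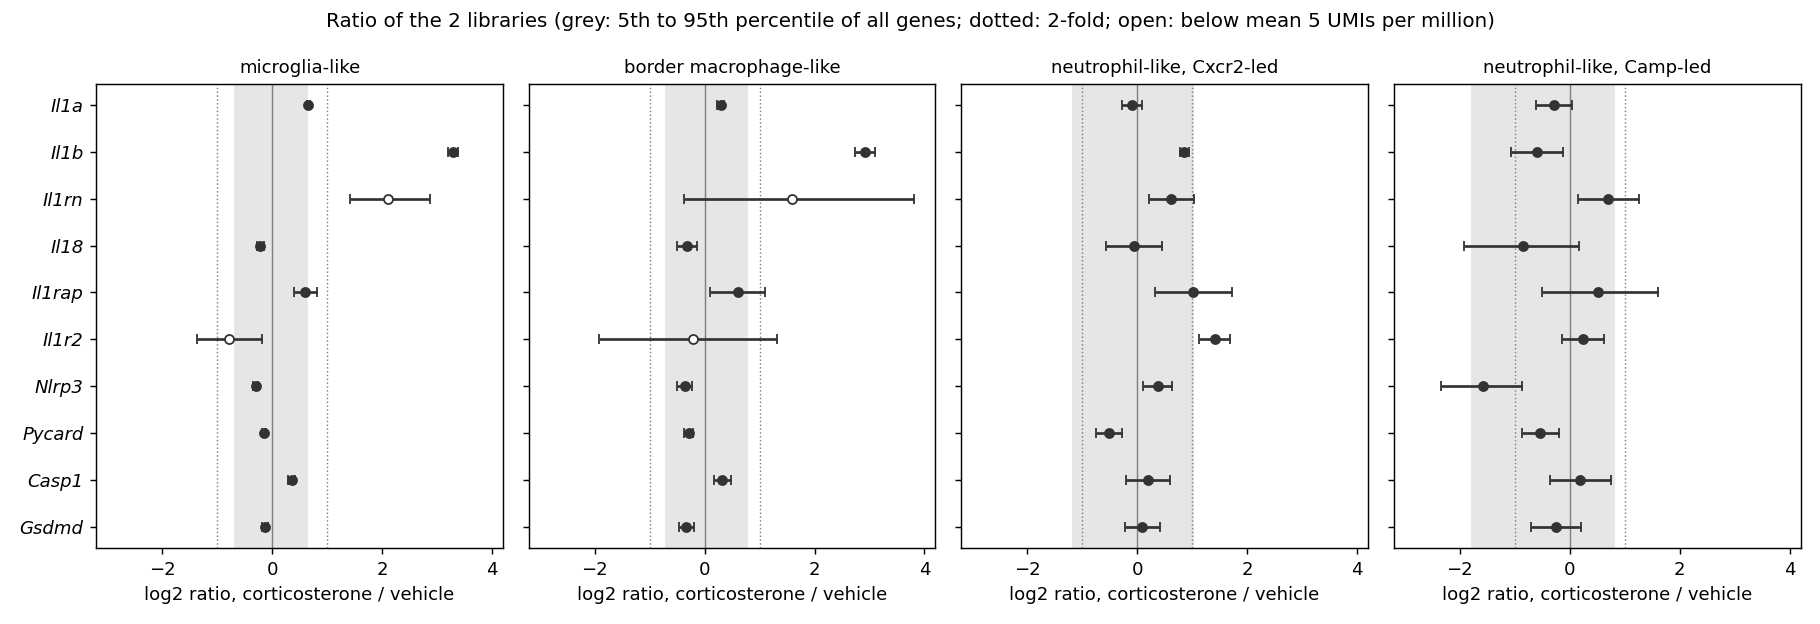
Log2 ratio of corticosterone over vehicle (x axis) for the 10 genes in 4 cell classes, with bars for 95% intervals, a grey band for the 5th to 95th percentile of all genes in the class, dotted lines at 2-fold, and open points for genes under a mean of 5 CPM. Il1b is beyond 2-fold in microglia-like and border macrophage-like cells (3.30 and 2.92), Il1r2 and Il1rap in the Cxcr2-led cluster (1.41 and 1.01), and Nlrp3 in the Camp-led cluster (-1.58).

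In border-associated macrophage-like cells Il1b was at 26.4 CPM (23.5 to 29.6) under vehicle and 199 CPM (189 to 210) under corticosterone, a log2 ratio of 2.92 (2.73 to 3.10). It was the 1 of 8 measured members past 2-fold, against 5.13% of 9759 genes, 3.16% higher and 1.98% lower. The level was 0.898 times (0.787 to 1.02) the microglia-like level under vehicle and 0.690 times (0.652 to 0.729) under corticosterone. Both intervals included values within the range of the 4 microglia markers given earlier, and microglia RNA and the macrophages' own Il1b cannot be told apart here. Thinned shares were 2.12% and 11.2%. Il1a was lower there than in microglia-like cells in both libraries, at 0.722 and 0.560 times, below the marker range. Casp1 was at 1.04 and 1.01 times its microglia-like level, the highest multiple of the 8 measured members in vehicle. Its ratio between libraries was 0.32 (0.17 to 0.47), and those of Nlrp3, Pycard, Gsdmd and Il18 were -0.37, -0.29, -0.34 and -0.32. The 4 microglia markers had log2 ratios of -0.19 to -1.16 in these barcodes, and the macrophage marker Mrc1 had 1.15. Median depth of the class was 6746 and 6686 UMIs, where microglia-like cells had 3184 and 4006.5. The part of these differences in the members' ratios was not tested.

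The Cxcr2-led neutrophil-like cluster had the highest Il1b level of the classes read. It was at 1411 CPM (1347 to 1477) under vehicle and 2563 CPM (2477 to 2652) in corticosterone, which is 48.0 and 8.87 times the microglia-like level of the same library. The log2 ratio between libraries was 0.86 (0.78 to 0.94), and the thinned share was 65.8% (58.4 to 72.6%) of 184 cells and 72.9% (67.2 to 78.1%) of 273 cells. Intervals of the shares overlapped and those of the levels did not. The median depth of the cluster was 2830 and 2429 UMIs.

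Il1r2, described as a gene that glucocorticoids induce in neutrophils, was at 114 CPM (96.3 to 134) under vehicle and 302 CPM (273 to 334) under corticosterone in the Cxcr2-led cluster, a log2 ratio of 1.41 (1.13 to 1.69). Its thinned share was 21.7% (16.0 to 28.4%) and 35.5% (29.9 to 41.5%), intervals that did not overlap. Il1rap was at 21.4 CPM (14.2 to 30.9) and 43.1 CPM (32.5 to 55.9), a ratio of 1.01 (0.33 to 1.72) that rests on 28 and 56 UMIs. Il1rn was at 66.5 CPM (53.2 to 82.0) and 102 CPM (85.6 to 121), a ratio of 0.62 (0.22 to 1.03). All 10 members were measured in this cluster, 7 higher and 3 lower, and 2 were at least 2-fold higher. Of 9589 genes in the cluster, 43.9% were higher at any fold. Over these genes 12.6% differed at least 2-fold, 5.26% higher and 7.39% lower, and the median of all genes was -0.09 beside 0.29 for the members. Nlrp3 was at 161 CPM (140 to 184) and 209 CPM (185 to 236), a ratio of 0.38 (0.11 to 0.64), and Pycard at 286 and 201 CPM, a ratio of -0.51 (-0.75 to -0.28). Il1a, Il18, Casp1 and Gsdmd had intervals that included 0. The markers of microglia in these barcodes had log2 ratios of -0.22 to -1.34 between the libraries. The neutrophil markers S100a8 and S100a9 had ratios of 0.59 and 0.65, and Ly6c2, a marker of monocytes, was at 176 and 726 CPM, a ratio of 2.05. The part of these differences in the members' ratios was not tested.

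The RefSeq window of Il1r2, chr1:40085843-40086142 on the plus strand of GRCm38.p6, is shown because this gene had the largest ratio of the cluster among the members. Capitals mark its 1 match, a GAS motif that begins 111 bases before the start.
Il1r2: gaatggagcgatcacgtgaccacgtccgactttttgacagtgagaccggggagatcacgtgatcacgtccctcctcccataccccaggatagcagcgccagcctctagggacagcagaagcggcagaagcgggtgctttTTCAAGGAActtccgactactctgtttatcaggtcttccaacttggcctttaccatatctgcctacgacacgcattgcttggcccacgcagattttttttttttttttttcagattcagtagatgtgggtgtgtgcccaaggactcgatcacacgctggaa
None of the other 4 motifs was in the window. The window lies inside the annotated span of Il1r2 in build GRCm38, chr1:40074079-40125231. That span overlaps the antisense transcript Gm16894 and, on the same strand as Il1r2, the annotated entry Gm37347. UMIs of these partners cannot be told apart from those of Il1r2.

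The Camp-led cluster had the member transcripts at other levels. Il1b was at 93.2 CPM (75.0 to 114) under vehicle and 61.7 CPM (47.8 to 78.6) under corticosterone, a log2 ratio of -0.59 (-1.07 to -0.12), and Nlrp3 at 64.5 CPM (49.6 to 82.5) and 21.5 CPM (13.6 to 32.3), a ratio of -1.58 (-2.34 to -0.87). Nlrp3 was the 1 of 10 measured members past 2-fold, where 20.6% of 8923 genes were, 17.6% lower and 3.05% higher. The 4 microglia markers had log2 ratios of -1.18 to -2.04 there, and the median cell had 2760 and 7525.5 UMIs, so the libraries differ in what these barcodes hold. Il1r2 was at 109 CPM (88.9 to 131) and 128 CPM (108 to 152), a ratio of 0.24 with an interval from -0.14 to 0.62. Its ratio in the Cxcr2-led cluster lay outside that interval. Il1rn was at 45.1 CPM (32.7 to 60.5) and 73.0 CPM (57.7 to 91.1), a ratio of 0.70 (0.14 to 1.26). With both clusters summed, 1 of 10 members was at least 2-fold higher, Il1r2 at 1.0, against 2.4% of 9566 genes higher and 7.55% lower, 9.95% in all. The share of the Camp-led cluster differed between the libraries, which enters that joint value.

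The classes can be ordered by level for each gene. A cluster of 120 vehicle and 117 corticosterone cells was left out of the order, since class II genes such as H2-Eb1 and H2-Aa led it beside the monocyte genes Ccr2 and Fn1, and its level of the monocyte gene Ly6c2 was 355 and 3331 CPM. For Il1b in vehicle the order was Cxcr2-led neutrophil-like (1411 CPM), Camp-led neutrophil-like (93.2 CPM), microglia-like (29.4 CPM) and border-associated macrophage-like (26.4 CPM), and the intervals of the last pair overlapped. In corticosterone it was Cxcr2-led (2563 CPM), microglia-like (289 CPM), border-associated macrophage-like (199 CPM) and Camp-led (61.7 CPM), with no overlap between neighbours. Microglia-like cells thus stood above Camp-led cells in corticosterone and below them in vehicle. Of these 4 classes Il1a was highest in microglia-like cells in both libraries. For Casp1 in vehicle the microglia-like, macrophage-like and Cxcr2-led levels, 71.0, 73.6 and 76.4 CPM, had overlapping intervals, and in corticosterone so did their 90.7, 91.9 and 87.7 CPM.

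Co-detection asks whether members were found in the same cell more often than their separate shares give. It was counted in microglia-like cells thinned to 1000 UMIs as the number of cells with both transcripts over the product of the shares. Of 45 pairs, 25 had an expected count of at least 5 in both libraries, and among these 12 lay above 1 in both and 5 below 1 in both. The median over the pairs was 1.02 in vehicle and 1.0 in corticosterone. Il1a and Il1b were found together in 93 vehicle cells where 67.2 were expected, a multiple of 1.38, and in 1424 corticosterone cells where 1192 were expected, a multiple of 1.19. In corticosterone, Il1b was found in 18.8% of cells with Il1a and in 12.7% of cells without it. Il1b and Nlrp3 were found together in 29 cells (24.8 expected) and 296 cells (267 expected), multiples of 1.17 (0.784 to 1.68) and 1.11 (0.986 to 1.24) that do not stand apart from 1. Nlrp3 and Casp1 had multiples of 1.15 and 1.09. Il1b with Casp1 had 0.988 and 0.870, and Il1b with Il1rap had 14 cells in corticosterone where 25.1 were expected.

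**Figure D5:**
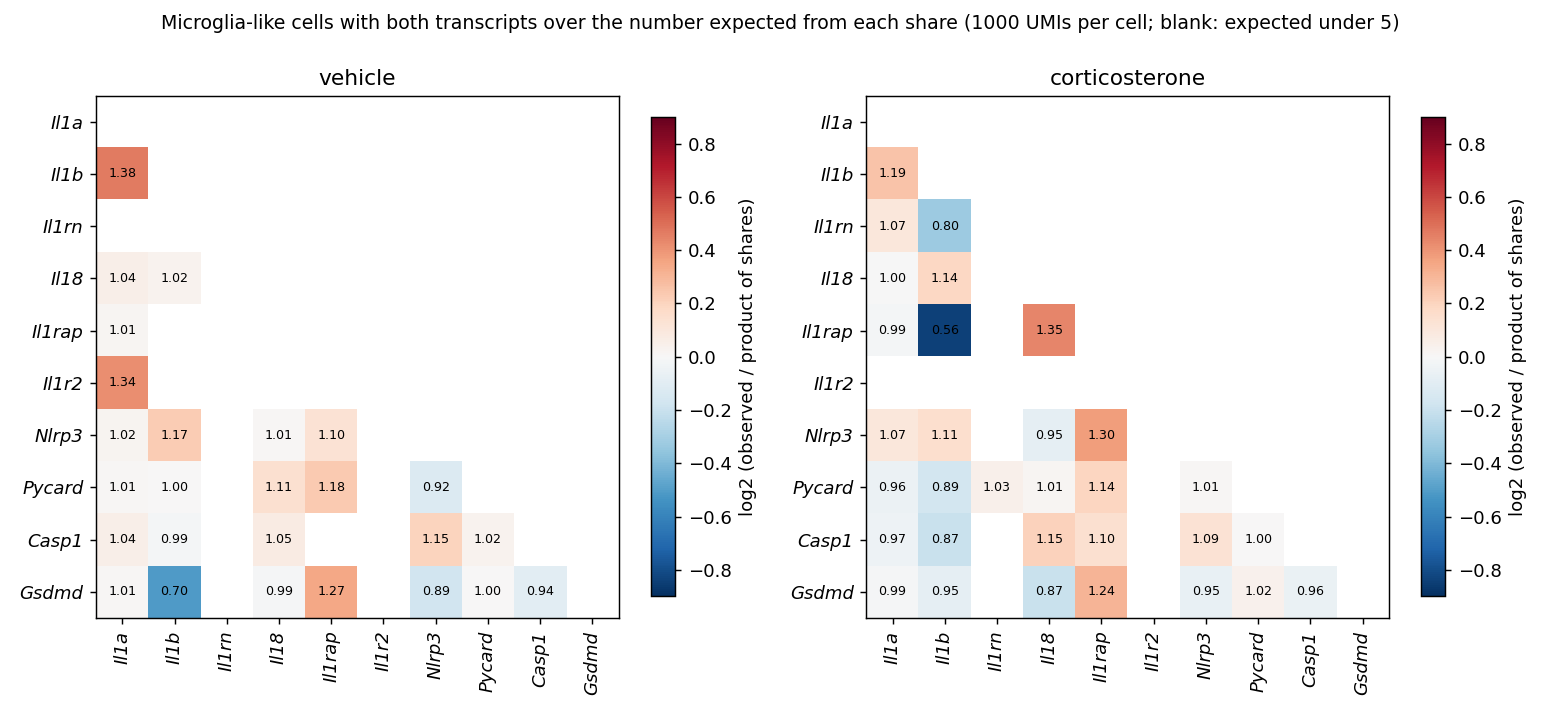
Number of microglia-like cells with both transcripts divided by the number expected from each share, for pairs with an expected count of at least 5, after thinning to 1000 UMIs (colour on a log2 scale, value printed). Most squares lie near 1, and Il1a with Il1b is at 1.38 in vehicle and 1.19 in corticosterone.

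The transcripts of the NLRP3 complex were rarely all seen in 1 cell. As deposited, Nlrp3, Pycard and Casp1 occurred jointly in 7.92% (7.35 to 8.53%) of the microglia-like cells under vehicle and in 10.3% (9.78 to 10.7%) under corticosterone, where the product of their shares gives 4.86% and 7.79%. Depth differed between cells and between the libraries, so neither the excess over the product nor the library difference is read. After thinning, multiples in vehicle and corticosterone were 0.919 and 1.01 for Nlrp3 with Pycard, and 1.02 and 1.0 for Pycard with Casp1. Nlrp3 with Casp1 had 1.15 and 1.09. Cells with Il1b had all 3 more often than cells without it, 15.2% against 7.44% in vehicle and 14% against 8.47% in corticosterone. Cells with Il1b were deeper, with a median of 4151 against 3128 UMIs and 4551 against 3772. After thinning, corticosterone cells with Il1b had Pycard in 24.4% and those without it in 27.8%, and Casp1 in 7.39% and 8.69%. In vehicle the thinned values were 28.9% and 28.9% for Pycard and 6.67% and 6.75% for Casp1. After thinning, the median cell held a UMI of 1 member in each library, and 64 of 7587 vehicle and 278 of 15352 corticosterone cells held 4 or more.

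Genes around the members are given by lists for microglia-like cells, where 48.0% of all genes at this level were higher and 4.33% were past 2-fold either way. Of the IL-1 family list, 7 of 16 genes in the files were measured, 3 higher and 4 lower, with a median of -0.09. Beside the members these were Il33, an alarmin of the family, at 24.8 and 17.1 CPM (-0.54), Il1rl1, its receptor gene, at 7.86 and 5.76 CPM (-0.45), and Il1rl2, the receptor gene of IL-36, at 31.7 and 29.7 CPM (-0.09). Il1r1, the signalling receptor of IL-1, was below the level limit at 1.31 CPM from 44 UMIs and 5.10 CPM from 371 UMIs, and it was singled out after its values were seen. Of 14 measured sensors, adaptors, caspases and gasdermins, members included, 7 were higher and 7 lower, none past 2-fold, with a median of -0.03. Without the members, 6 of 10 were higher and 4 lower, with a median of 0.07. The list ran from Gsdme, a further gasdermin, at -0.42 and Nlrp1a, another sensor, at -0.35 to Naip2, a sensor of bacterial secretion systems, at 61.4 and 92.6 CPM (0.59). Casp4, which encodes caspase-11 of the non-canonical route, was at 35.0 and 39.1 CPM (0.16). Among 15 measured genes of NLRP3 activation and its regulators 9 were higher and 6 lower, and 1 was past 2-fold, the channel gene Panx1 at 6.76 and 13.8 CPM (1.02). P2rx4, an ATP-gated channel, was at 54.4 and 86.9 CPM (0.68), and Trim30a, an interferon-induced gene, at 0.67. Ripk3, a kinase of necroptosis, was at 7.38 and 4.46 CPM (-0.73), the potassium channel gene Kcnk6 at -0.38 and the kinase gene Gsk3b at -0.31.

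Downstream of the receptor, 8 of 20 genes of the IL-1 and Toll receptor signal chain were higher and 12 lower, with 0 past 2-fold and a median of -0.06. Of the 5 NF-kB subunit genes, Nfkb1 and Rela were at -0.07 and -0.01, Nfkb2 was at 31.5 and 48.7 CPM (0.63), Relb at 40.7 and 59.4 CPM (0.55), and Rel at 89.8 and 58.1 CPM (-0.63). Irak3, an inhibitor of the chain, was at 0.43, and Map3k7 and Tab2, the kinase TAK1 and its partner, were at -0.32 and -0.31. Of 11 measured genes known to be induced by IL-1, 5 were higher and 6 lower, with a median of -0.14. The neutrophil chemokine gene Cxcl2 was past 2-fold higher at 13.5 and 47.3 CPM (1.81). Ccl2, a monocyte chemokine gene, was at 1558 and 2841 CPM (0.87), and Tnf at 447 and 634 CPM (0.51). Il6 was at 26.0 and 19.4 CPM (-0.43) and Tnfaip3, a brake on NF-kB, at 289 and 221 CPM (-0.39). Lcn2, at 24.3 and 9.34 CPM (-1.38), is also in the list of neutrophil markers. Genes switched on by tissue dissociation were read because they can move with cytokine transcripts: 7 of 17 were higher and 10 lower, with a median of -0.19. Klf2 (476 and 160 CPM, -1.58) and Nr4a1 (327 and 114 CPM, -1.52) were past 2-fold lower, Fosb was at -0.85, and Ier3, Dusp1 and Ier2 were at 0.65, 0.46 and 0.27. Their part in the Il1b difference was not tested.

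The genes whose thinned counts went most with a member across microglia-like cells were found among 3007 genes by the lower of the Pearson correlations of the libraries. For Il1b they were Il1a, Ccl2, Ccl12, Ccl3 and Ccl7, with correlations of 0.0728 and 0.106 in vehicle and corticosterone for Il1a, and for Il1a Ier3, Ccl4, Nfkbia, Ccl2 and Tnf, with 0.122 and 0.204 for Ier3. For Nlrp3 they were Nfkbia, Egr1, Malat1, Marcksl1 and Stk10, and for Il18 Tuba1b, Tob2, Bst2, Top1 and Alg1, at still lower correlations. The cells of a library share its free RNA and preparation, and correlations of this size in sparse counts are a description only.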

How the data were processed

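Single-cell RNA libraries of 2 samples, 1 per group, were analysed. The authors deposited matrices of raw UMI counts, with genes in rows and cell barcodes in columns. The submitters' processing notes name bcl2fastq 2.19 and GRCm38; the aligner, counter, annotation and use of strand are not given in the sources used here. The deposited matrices are named wildtype and depression where the labels say vehicle and corticosterone, and each was assigned through its sample record.

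Barcodes under 500 UMIs, under 300 genes or over 20% mitochondrial UMIs were dropped. Scrublet called 0 doublets in each library and thus did not work, so none were removed. Cells were clustered (scanpy 1.11.5, leidenalg 0.10.2, 2000 variable genes, 30 components, 15 neighbours, resolution 0.5) with the members and list genes, 102 in all, left out. Clusters were named from marker lists with thresholds set after the data were seen, and 1 cluster of low UMI counts, led by Lrmda and Kcnq1ot1, stayed unnamed. UMIs were summed per class and library and divided by the class total. Levels have exact Poisson intervals, ratios exact conditional intervals and shares Clopper-Pearson intervals. A difference was counted when it was at least 2-fold at a mean of at least 5 CPM. For shares each cell was thinned to 1000 UMIs, and a count of 0 was read as a limit of 3 cells. The ratio was checked on simulated data. Alternatives covered scaling (edgeR 4.0.16, DESeq2 1.42.0, for scaling factors only), filters, clustering, thinning and class. In each list the 3 highest and 3 lowest ratios were named. Members and lists were chosen with earlier results of these data known. Promoters matched for 9 of 10 members.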

Additional observations from a re-analysis of the deposited data

Results flagged for a closer look

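In the Camp-led neutrophil-like cluster the Il1b log2 ratio was -0.59, from 93.2 to 61.7 CPM, the direction opposite to that in microglia-like, border-associated macrophage-like and Cxcr2-led cells. The 4 microglia markers had log2 ratios of -1.18 to -2.04 in that cluster, and its median cell had 2760 and 7525.5 UMIs. The part of these differences in the Il1b ratio was not tested. Il1r2 had a log2 ratio of 1.41 in the Cxcr2-led cluster and -0.78 in microglia-like cells, where only 46 and 58 UMIs were counted and no direction is read. Nlrp3 had a log2 ratio of 0.38 in the Cxcr2-led cluster and -0.30 in microglia-like cells. With 1 library per group none of these differences between classes was tested.

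The unnamed cluster of low UMI counts, 581 vehicle and 1124 corticosterone cells, entered no class comparison of the main reading. It was part of some alternatives given below, such as the sum with all cells kept. This cluster also held the ligand transcripts. There, Il1b was at 21.6 CPM under vehicle and 253 CPM under corticosterone, and its Il1a level was 393 and 969 CPM.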

How the results depend on the processing

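The Il1b log2 ratio kept its direction and stayed past 2-fold in all 12 alternatives to the main microglia-like reading, from 2.20 to 3.41. The 2.20 came with all cells kept, a sum over every class that includes the neutrophil-like clusters. In microglia-like cells the ratio was 3.39 with TMM and 3.41 with DESeq2 scaling. It was 3.16 and 3.10 in cluster 0 and cluster 1 alone, alternatives chosen after seeing the data. Il1a kept its direction, at 0.76 with TMM, 0.77 with DESeq2 scaling, 0.43 without cells that held a neutrophil or macrophage marker, 0.73 with all cells kept, and 0.94 and 0.78 in cluster 0 and cluster 1. Without cells with such markers, Il1rn was -0.079, Il18 0.20 and Pycard 0.13. In that subset of 543 vehicle and 629 corticosterone cells Il1rap was 1.86 and Il1r2 -1.66, both in their main direction. Il1r2 was 0.17 with all cells kept and 1.30 in cluster 1, Il1rn was -0.90 in cluster 0, and Gsdmd was 0.10 and 0.044 in those clusters. The sum over all cells includes neutrophil-like cells, so the 0.17 of Il1r2 is no microglia-like value. Mean Il1r2 levels were 208 CPM in the Cxcr2-led cluster and 1.08 CPM in microglia-like cells. The cause of the other reversals was not tested. The Il1b share was 1.35% and 9.93% when thinned to 500 UMIs, 3.85% and 23.5% at 2000, 6.18% and 32.2% unthinned, and 1.40% and 17.0% without cells with other markers. Co-detection of Il1b and Nlrp3 was 0.635 in vehicle at 500 UMIs and 0.747 in corticosterone without cells with other markers. Members past 2-fold numbered 2 of 10 in microglia-like and 2 of 10 in macrophage-like cells with no level filter, where 20.2% and 14.6% of all genes were. In neutrophil-like cells they numbered 2 with TMM scaling (9.2% of all genes), 0 with stricter cell filters (9.8%) and 2 in the Cxcr2-led cluster alone (12.6%). Il1rn and Il1r2 rest on 19 and 46 UMIs in vehicle microglia-like cells. No paired analysis was possible because each group had 1 library and no test was made.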
